A study of Mus musculus with 6 samples.

Results

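The genes described here encode enzymes that build ceramide and sphingolipids and one that ends the pathway. They are Sptlc1, Sptlc2, Kdsr, Cers2, Cers5, Cers6, Degs1, Sgms1, Ugcg and Sgpl1. They were picked by gene symbol, with earlier results of these data known, and all 10 were found among the 25664 genes of the count table. All 10 also passed the filter on low counts, which kept 11011 genes. The counts come from 6 RNA sequencing libraries of alveolar macrophages, phagocytes that live in the air spaces of the lung, each made from 50000 cells sorted from mouse lavage fluid. Each mouse group was homozygous for a floxed Pex5 allele (Pex5fl/fl). The 3 libraries called Pex5-deficient came from animals that also carried 1 Vav1cre allele (Vav1cre/+ Pex5fl/fl), and the 3 called control from animals without it. Vav1-Cre acts in blood-forming cells and all their descendants, so the deletion is not limited to macrophages. PEX5 is the receptor that delivers most enzymes to the inside of peroxisomes. The sources used here give no age or sex and do not state whether the libraries of a group came from separate mice. The p-values therefore measure the spread between these libraries, which may be technical.

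Sphingolipid synthesis starts in the endoplasmic reticulum, where serine palmitoyltransferase joins serine to palmitoyl-CoA and a reductase makes a sphingoid base of the product. Ceramide synthases attach a second fatty acid, each with its own preferred chain length, and a desaturase turns dihydroceramide into ceramide. Ceramide then receives a head group, which gives sphingomyelin or glucosylceramide, or is broken down to sphingosine. Sphingosine 1-phosphate lyase makes the only exit from the pathway. In the lung, sphingolipids belong to cell membranes and are a minor part of the surfactant lipid that alveolar macrophages take up and clear.

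Library totals ran from 13325609 to 19413838 counts, and 3 counts correspond to 0.126 to 0.235 CPM (counts scaled to a fixed library size). Pex5-deficient replicate 2 stood apart, with a scaling factor of 1.34 against 0.899 to 1.03 in the others, and it held nearly all counts of haemoglobin and other erythroid markers (5.08 CPM summed over 6 genes, at most 0.170 CPM in any other library). Whether these counts bear on its other values was not tested. All 12 alveolar macrophage markers were tested, and their summed level was 50180 to 79570 CPM in control and 32582 to 75427 CPM in Pex5-deficient libraries. Chil3 made up most of that sum in each library. Of these 12, 3 were called lower in the Pex5-deficient libraries, Siglecf (log2 fold change -1.57, adjusted p = 0.00334 by edgeR), Ear1 (-2.52, adjusted p = 0.0307) and Krt79 (-1.44, adjusted p = 0.0233), and 1 higher, Fabp4 (1.46, adjusted p = 0.0482). The 12 neutrophil markers summed to 84.5 to 98.6 CPM in control and 125 to 188 CPM in Pex5-deficient libraries, and 7 of them were at 0 in every library (S100a9, Retnlg, Mmp9, Ly6g, Camp, Ngp and Elane). Of 4 tested, 2 were called higher: the mean of S100a8 was 6.66 CPM in the controls against 27.9 CPM in the other group (log2 fold change 2.07, adjusted p = 0.0203 by edgeR), and Cxcr2 6.09 and 27.8 CPM (2.17, adjusted p = 0.00808). Mmp8 was not called (0.90, adjusted p = 0.156 by edgeR). Csf3r, also not called, went the other way, from 40.5 CPM in the controls to 28.1 CPM (-0.52, adjusted p = 0.279). The part of these marker differences in the values below was not tested. Epithelial markers summed to 44.3 to 131 CPM in control and 14.7 to 14.8 CPM in Pex5-deficient libraries, but this sum followed Epcam alone. Epcam was called lower (log2 fold change -2.75, adjusted p = 0.00810 by edgeR), and no other gene of that list exceeded 1.49 CPM in any library. Monocyte and other macrophage markers summed to 141 to 220 CPM in control and 188 to 251 CPM in Pex5-deficient libraries, nearly all of it Fcgr4. Of 2 tested, 0 were called: Fcgr4 (log2 fold change 0.36, adjusted p = 0.368 by edgeR) and Ccr2 (-0.38, adjusted p = 0.524). Markers of T and NK cells, B cells, eosinophils and dendritic cells summed to less than 1 CPM in every library. Pex5 itself averaged 31.6 ± 1.71 CPM in control libraries and 32.4 ± 3.45 CPM in Pex5-deficient ones (mean ± SD, n = 3 each), so the counts over the whole gene do not check the genotype.

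The comparison asks whether transcripts of sphingolipid synthesis differ in macrophages of mice in which Pex5 was floxed and Vav1-Cre present. None of the 10 genes passed the test: 0 were called higher and 0 lower in edgeR's quasi-likelihood fit (p-values adjusted by Benjamini-Hochberg over all genes), where 3.25% of all tested genes were called. Log2 fold changes (Pex5-deficient over control) ran from -0.37 for Ugcg to 0.33 for Sgms1. The median was -0.03, against -0.000767 over all tested genes, and the median size without regard to sign was 0.15 against 0.19. At an unadjusted p under 0.05 there was 1 of the 10, Sgms1, against 18.9% of all tested genes, and DESeq2 placed 0 there. Without Pex5-deficient replicate 2 there were 3 (Cers2, Sgms1 and Ugcg), against 21.6% of all genes tested in that fit, and still 0 calls. In bulk libraries, fewer cells that express a gene and less of its RNA per cell cannot be told apart.

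**Figure D1:**
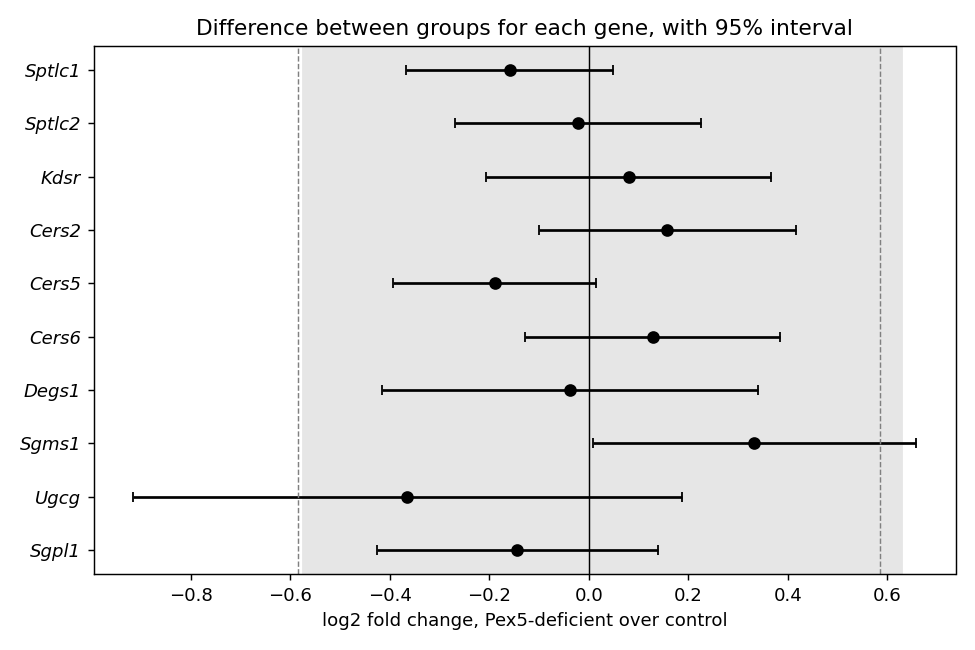
Log2 fold change of each of the 10 genes (horizontal axis, Pex5-deficient over control) with its 95% interval from the edgeR fit over 3 libraries a group. The grey band holds the values of all tested genes between the 5th percentile (-0.57) and the 95th percentile (0.63), and dashed lines mark a 1.5-fold change. All 10 points lie inside the band, and only the intervals of Sgms1 and Ugcg reach past 1.5-fold.

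Given the scaling used, the intervals limit how large a difference between these libraries could be present. They do not cover a change of scaling, nor a spread between mice if the libraries are technical. No gene of the 10 had a fitted difference over 1.5-fold, which 10.5% of all tested genes had. For 8 of the 10 the whole 95% interval lay within 1.5-fold in either direction, against 47.7% of all tested genes, and for all 10 it lay within 2-fold, against 80.8%. The 10 genes were also more abundant than most, with a median of 64.4 CPM against 17.4 CPM for all tested genes, and how much of the difference in interval width goes with abundance was not tested. From the lowest to the highest of the 6 libraries a gene varied by 1.26-fold in the median, against 1.54-fold over all tested genes. Pex5-deficient replicate 2 held the highest value for 1 of the 10 and the lowest for 2, against 21.2% and 18.9% of all tested genes.

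**Figure D2:**
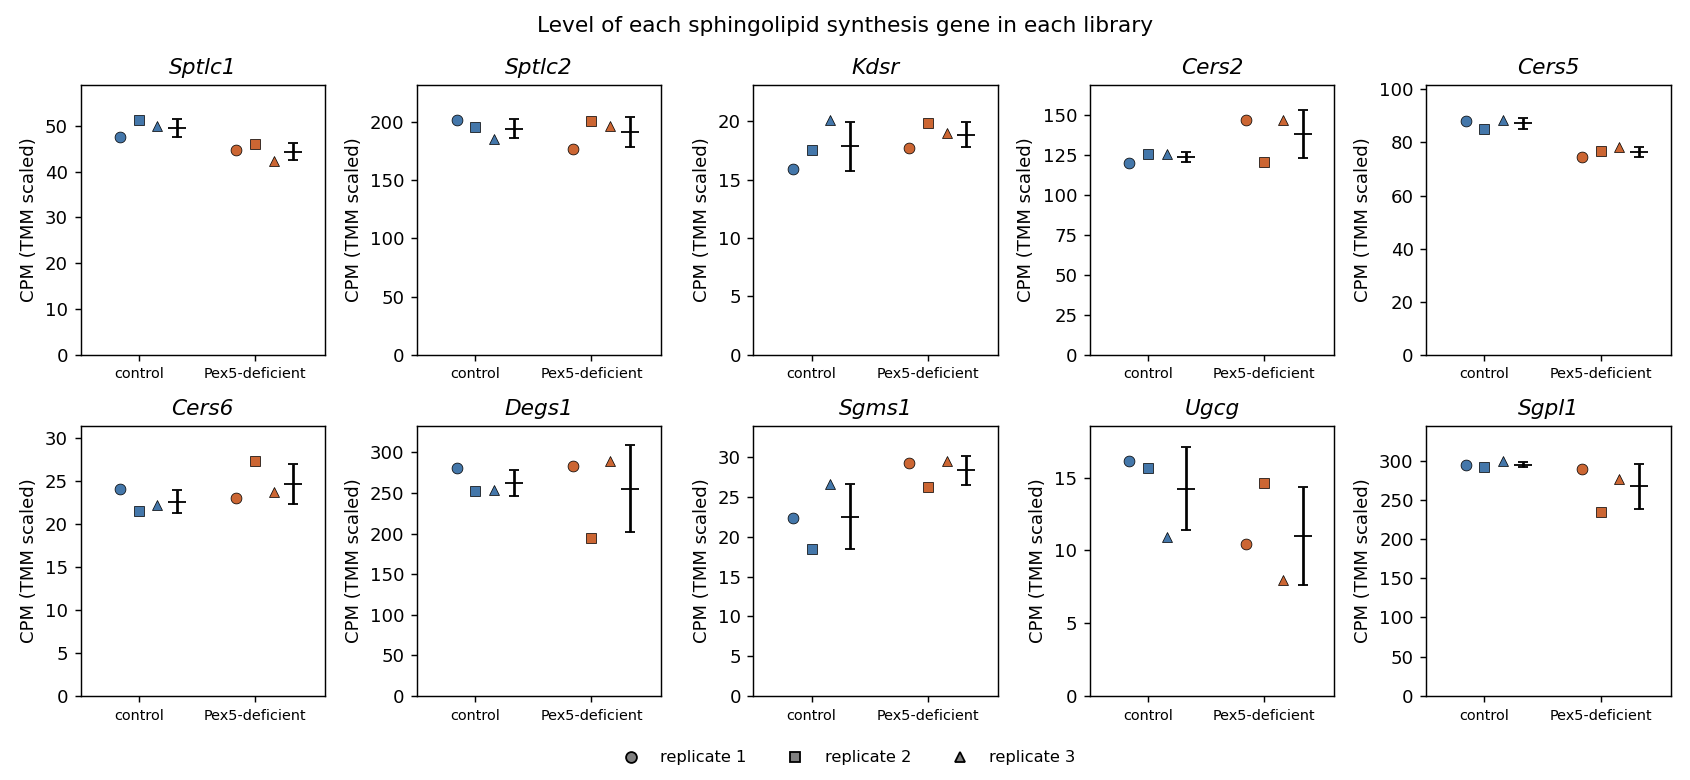
Level of each gene in CPM (vertical axis, from 0) in each library, by group (horizontal axis). The symbols stand for replicates 1 to 3, and the bar beside each group gives its mean and SD (n = 3). Sptlc1, Cers5 and Sgpl1 show no overlap between the groups, and Pex5-deficient replicate 2 is the lowest library for Degs1 and Sgpl1.

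Serine palmitoyltransferase, the rate-limiting enzyme, is a complex of SPTLC1 with SPTLC2, which carries the catalytic site. Sptlc1 (chromosome 13 from 53332748 to 53377397, GRCm38) measured 47.5, 51.2 and 49.9 CPM across control replicates 1 to 3, and 44.7, 46.1 and 42.4 CPM across the same numbers of the Pex5-deficient group. Every Pex5-deficient library was below every control library, but the difference was small, with a log2 fold change of -0.16 ± 0.09 (SE, adjusted p = 0.389 by edgeR). Sptlc2 (chromosome 12 from 87305058 to 87388355) was at 202, 196 and 185 CPM in the controls and 177, 201 and 197 CPM in the Pex5-deficient libraries. Its groups overlapped almost fully, and the log2 fold change was -0.02 with a 95% interval from -0.27 to 0.23. Kdsr, on chromosome 1 from 106720459 to 106759727, encodes the reductase that follows. It was at 15.96, 17.5 and 20.1 CPM in the controls and 17.8, 19.9 and 18.99 CPM in the Pex5-deficient libraries. The highest and the lowest of its 6 values were both control libraries, and its log2 fold change was 0.08 ± 0.13 (SE).

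The ceramide synthases differ in the acyl chain they add: CERS2 uses very long chains, while CERS5 and CERS6 use shorter ones, mainly palmitoyl. Cers2 (chromosome 3 from 95314791 to 95323599) was at 119.8, 126 and 125 CPM in the controls and 147, 121 and 147 CPM in the Pex5-deficient libraries. Pex5-deficient replicates 1 and 3 lay above all controls and replicate 2 lay among them. The log2 fold change was 0.16 ± 0.11 (SE, adjusted p = 0.496 by edgeR), and 0.26 without that library (unadjusted p = 0.0269, adjusted p = 0.168). It was 0.11 to 0.19 when any other library was left out.

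Cers5 (chromosome 15 from 99734881 to 99772885) was at 88.1, 85.0 and 88.4 CPM in the controls and 74.4, 76.7 and 78.2 CPM in the Pex5-deficient libraries. The groups were tight, with coefficients of variation of 2.19% and 2.53%, and did not overlap. The log2 fold change of -0.19 ± 0.09 (SE) gave an unadjusted p of 0.0655 and an adjusted p of 0.296 by edgeR. Cers6 (chromosome 2 from 68861441 to 69114282) was at 24.1, 21.6 and 22.2 CPM in the controls and 23.0, 27.3 and 23.7 CPM in the Pex5-deficient libraries. These groups overlapped, with a log2 fold change of 0.13 ± 0.11 (SE).

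Degs1 (chromosome 1 from 182275772 to 182282804) encodes the desaturase that completes ceramide. It was at 281, 252 and 253 CPM in the controls and 283, 194 and 289 CPM in the Pex5-deficient libraries. The low value belongs to Pex5-deficient replicate 2, while the other 2 libraries of that group were above all controls. The log2 fold change was -0.04 with an interval from -0.42 to 0.34, and it turned positive without that library (0.14, adjusted p = 0.470), without control replicate 1 (0.01) and with library size alone (0.09).

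Sgms1 encodes the sphingomyelin synthase of the Golgi and Ugcg the enzyme that makes glucosylceramide, so both draw on ceramide. Sgms1 (chromosome 19 from 32122727 to 32389714) was at 22.4, 18.5 and 26.7 CPM in the controls and 29.3, 26.3 and 29.5 CPM in the Pex5-deficient libraries. Control replicate 3 reached into the Pex5-deficient range. The log2 fold change of 0.33 ± 0.14 (SE) was the largest of the 10 in the upward direction, with an interval from 0.01 to 0.66, an unadjusted p of 0.0458 and an adjusted p of 0.255 by edgeR. Leaving out control replicate 2 gave 0.21 (adjusted p = 0.526) and leaving out control replicate 3 gave 0.49 (adjusted p = 0.146).

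Ugcg (chromosome 4 from 59189257 to 59222833) was the least abundant of the 10 in CPM, with 133 to 348 counts a library. It was at 16.1, 15.7 and 10.9 CPM in the controls and 10.4, 14.6 and 7.97 CPM in the Pex5-deficient libraries. Control replicate 3 and Pex5-deficient replicate 2 overlapped with the other group, and coefficients of variation were 20.2% and 30.6%, where counting alone gives at most 8.67%. The log2 fold change was -0.37 ± 0.24 (SE, adjusted p = 0.458 by edgeR), with the widest interval of the 10, from -0.92 to 0.19. Without Pex5-deficient replicate 2 it was -0.63 (unadjusted p = 0.0211, adjusted p = 0.149). Without Pex5-deficient replicate 3 it was -0.17 (adjusted p = 0.713 by edgeR), and without any of the remaining libraries -0.50 to -0.27.

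Sgpl1 (chromosome 10 from 61098642 to 61147703) encodes the lyase that cleaves sphingosine 1-phosphate. It was at 294, 292 and 299 CPM in the controls and 289.6, 235 and 277 CPM in the Pex5-deficient libraries. All Pex5-deficient libraries were below all controls, replicate 1 by little and replicate 2 by most. The log2 fold change was -0.14 ± 0.12 (SE, adjusted p = 0.581 by edgeR), and -0.05 without replicate 2.

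The groups did not overlap for 3 of the 10 genes (Sptlc1, Cers5 and Sgpl1), all lower in the Pex5-deficient libraries, against 26.1% of all tested genes in either direction and 13.1% lower. Without Pex5-deficient replicate 2 it was 7 of the 10, 3 higher and 4 lower, against 40.3% of all genes. The direction depends on the scaling. With no factor beyond the library total, the log2 fold change had a median of 0.17 over all genes and 0.12 over these 10, and then 1 gene was separate, higher, and 0 lower, against 17.3% of all genes in either direction. On that scale Sptlc1 was at 0.02, Sgpl1 at 0.00 and Cers5 at -0.02, against 0.48 for Sgms1 and -0.13 for Ugcg. The summed level of the 10 genes was 1076 to 1111 CPM in control libraries and 962 to 1109.6 CPM in Pex5-deficient ones, with replicate 2 the lowest.

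To compare genes with each other, levels were divided by the length of the annotated exons, in CPM per kb. Degs1 was first in both groups, at 101 ± 6.30 CPM per kb in control and 98.6 ± 20.5 in Pex5-deficient libraries (SD, n = 3). Sgpl1 followed with 48.0 ± 0.60 in control libraries, then Cers2 with 33.6 ± 0.89, Cers5 with 24.6 ± 0.54, Sptlc2 with 24.0 ± 1.02 and Sptlc1 with 13.9 ± 0.54. The other 4, Ugcg, Cers6, Kdsr and Sgms1, lay between 2.13 and 2.73 CPM per kb in the control mean.

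Neighbours in this order were compared by their ranges over all 6 libraries and also within each library. The ranges were apart for Degs1 and Sgpl1, Cers2 and Cers5, Sptlc2 and Sptlc1, and Sptlc1 and Ugcg. Sgpl1 was above Cers2, and Cers6 above Kdsr, within each of the 6 libraries, although their ranges overlapped. Cers5 and Sptlc2, Ugcg and Cers6, and Kdsr and Sgms1 changed places between libraries. With the longest transcript in place of all exons, 7 of the 10 genes held the same place in control libraries, and Sgms1 moved from the tenth to the 7th place, since its 15 annotated transcripts span 10546 bases of exon but the longest has 4036. By that length the control mean of Cers6 (3.22 CPM per kb) was below that of Kdsr (3.24). The Pex5-deficient mean of Cers2 (62.3) was then above that of Sgpl1 (61.2).

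**Figure D3:**
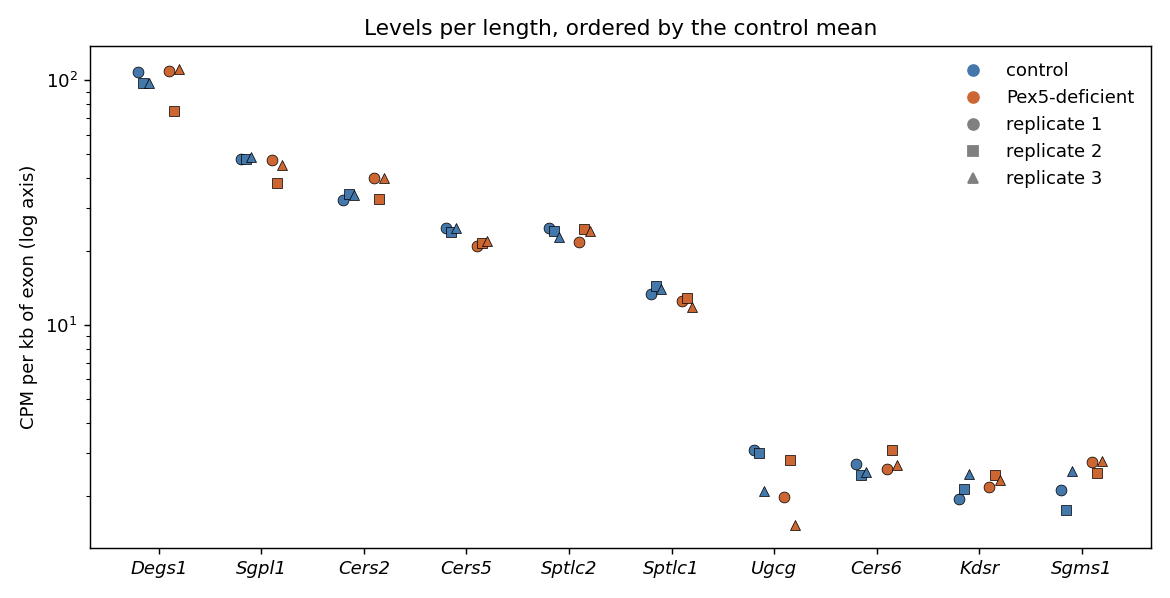
Level per length (vertical axis, CPM per kb of exon, log scale) of the 10 genes, ordered by their control mean (horizontal axis), with colours for the groups and symbols for the replicates. Degs1 is highest near 100 CPM per kb, a gap separates Sptlc1 from the last 4 genes, and the groups lie close together for every gene.

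Ratios between genes of the pathway, taken within a library, do not depend on how libraries are scaled. There were 5, compared by an exact permutation test that cannot give a p below 0.1 with 3 against 3 libraries, so none could pass. Counts of Cers6 per count of Cers5 were 0.274, 0.254 and 0.251 in control and 0.309, 0.356 and 0.303 in Pex5-deficient libraries. This was the only ratio whose groups did not overlap, with a difference of 0.31 on the log2 scale (exact permutation p = 0.1, two-sided, the smallest possible, adjusted p = 0.25 over the 5 ratios). The difference stayed between 0.24 and 0.35 whichever library was left out. Cers5 held 36.6% to 38.0% of the counts of the 3 synthases in control and 30.5% to 34.1% in Pex5-deficient libraries.

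Counts of Sgms1 per count of Ugcg set a gene of the sphingomyelin branch beside a gene of the glucosylceramide branch. They were 1.39, 1.18 and 2.44 in control and 2.81, 1.80 and 3.70 in Pex5-deficient libraries. The mean difference of 0.74 on the log2 scale was the largest of the 5 ratios, but control replicate 3 exceeded Pex5-deficient replicate 2 (exact permutation p = 0.2, adjusted p = 0.25). Sgms2, the other sphingomyelin synthase gene, is not part of this ratio. It was at 38.3 ± 4.31 CPM in the controls and 35.6 ± 4.90 CPM in the Pex5-deficient libraries (SD), with a log2 fold change of -0.10 ± 0.13 (SE). Sptlc2 to Sptlc1 differed by 0.14 and Cers2 to the sum of Cers5 and Cers6 by 0.27, both with overlapping groups (exact permutation p = 0.2 for each). Sgpl1 to the sum of Sptlc1 and Sptlc2 differed by -0.10 (exact permutation p = 0.7), and by 0.02 without Pex5-deficient replicate 2.

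**Figure D4:**
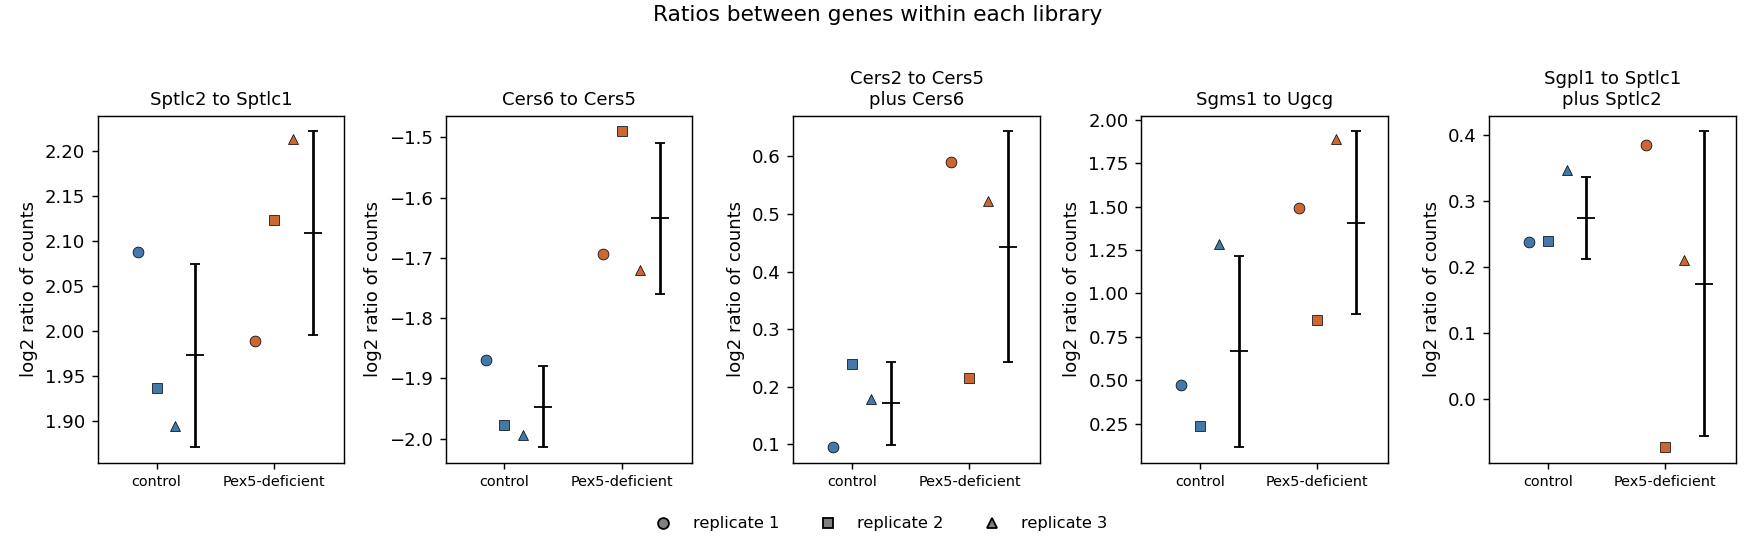
Log2 ratio of counts (vertical axis, a separate range in each panel, not starting at 0) for the 5 ratios, in each library by group (horizontal axis), with mean and SD (n = 3) beside the points. The Cers6 to Cers5 ratio is the one whose groups are apart, by 0.31 in the mean, and Sgms1 to Ugcg has the largest mean difference, 0.74, with overlap.

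Position and sequence were looked at as features the choice of genes did not use. The 10 genes lie on 9 chromosomes, with Kdsr and Degs1 on the same one. None of the 100-base words of their longest transcripts occurs in a transcript of another gene, the 3 synthases of the same family included. All 10 matched a promoter window in the RefSeq table (GRCm38.p6), of which the 250 bases before the most upstream start in that table were used. The GENCODE gene begins further upstream in 7 of them: the whole window lies inside it for Cers2, Cers5, Degs1, Sgms1 and Ugcg, and 36 and 19 bases do for Sptlc1 and Sgpl1. The ratio of observed to expected CG pairs, a sign of a CpG island, exceeded 0.6 in 10 of 10, against 70.7% of the 8513 tested genes with a window and 34.5% of all 27019 promoters. The median of this ratio was 0.728 in the 10, slightly below the 0.749 of the tested genes, and 0.379 in all promoters. The lowest of the 10 was 0.625, close to that cutoff. TATAAA was found on either strand in 0 of 10, against 5.93% and 13%. GGGCGG, the core of the SP1 motif, was found in 8, against 60.3% and 33%. CCAAT was found in 4, against 37.2% and 34.5%. CACGTG, an E-box, was found in 3 (Cers2, Cers6 and Degs1), against 8.81% and 6.04%. None of these motifs contains another.

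Shown are the windows of Cers6, whose ratio to Cers5 separated the groups, and of Sgms1, with the largest fitted difference upward, both of which hold 0 bases of annotated exon, read 5′ to 3′ along the gene's strand with every CG pair in capitals.

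Cers6 (chr2:68861191-68861440, + strand): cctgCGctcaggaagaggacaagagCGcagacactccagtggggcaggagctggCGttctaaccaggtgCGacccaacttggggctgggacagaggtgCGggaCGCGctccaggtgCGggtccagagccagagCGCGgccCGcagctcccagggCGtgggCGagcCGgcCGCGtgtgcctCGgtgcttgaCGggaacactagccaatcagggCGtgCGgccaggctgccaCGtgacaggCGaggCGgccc
Sgms1 (chr19:32388513-32388762, - strand): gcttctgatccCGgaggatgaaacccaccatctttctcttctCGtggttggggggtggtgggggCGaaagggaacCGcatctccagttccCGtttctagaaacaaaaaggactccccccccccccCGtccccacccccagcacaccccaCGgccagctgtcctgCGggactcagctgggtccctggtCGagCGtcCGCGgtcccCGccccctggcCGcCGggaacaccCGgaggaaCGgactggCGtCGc

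Cers6 has 23 CG pairs and Sgms1 has 19, with observed over expected CG pairs of 0.754 and 0.687. Cers5 and Ugcg, whose windows overlap annotated exons by 177 and 250 bases, have 16 and 43 CG pairs (0.702 and 1.07).

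Genes around these steps were read from 10 lists with 94 symbols, of which 93 were in the table and 67 were tested (Cert1 is the newer name of Col4a3bp, which was in the table). Of the 67, 2 were called higher and 1 lower, against 1.74% and 1.51% of all tested genes. Their median log2 fold change was 0.03, and the groups did not overlap for 18 of the 67, against 26.1% of all tested genes. The calls were Plpp3, Hacd2 and Elovl6, and each lost its call when some single library was left out.

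**Figure D5:**
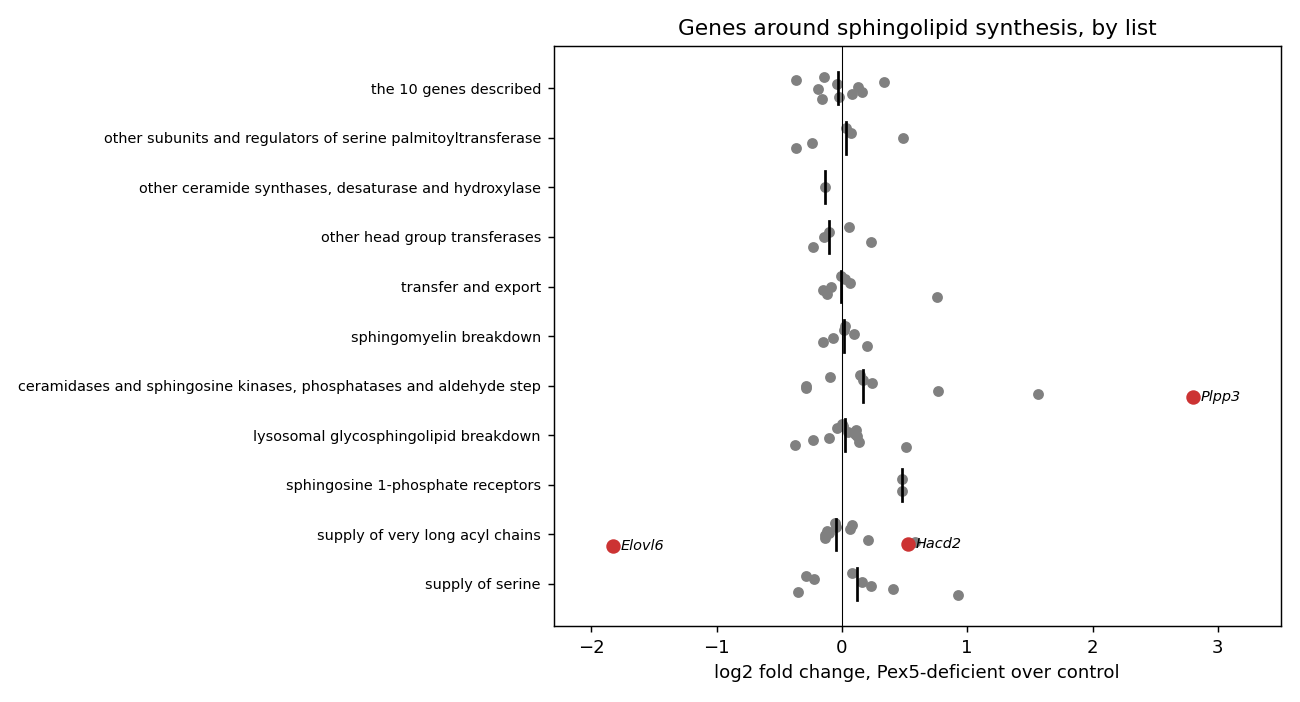
Log2 fold change (horizontal axis, Pex5-deficient over control) of each tested gene in the 10 described genes and the 10 surrounding lists (vertical axis), with a black line at each list's median. Red points are the 3 genes called by edgeR, Plpp3 (2.80), Hacd2 (0.53) and Elovl6 (-1.83), and grey points the rest.

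Around serine palmitoyltransferase 0 of 5 tested genes were called (median 0.03). Sptssa, a small activating subunit with the highest mean of its list, was at 75.7 ± 22.7 CPM in the controls and 106 ± 38.8 CPM in the Pex5-deficient libraries (SD, n = 3). Ormdl3, which encodes an inhibitor of the enzyme that senses ceramide, was at 18.5 ± 1.52 and 15.8 ± 0.51 CPM with no overlap (log2 fold change -0.24 ± 0.12, SE, adjusted p = 0.317 by edgeR). Zdhhc9, placed in this list but encoding a palmitoyltransferase that acts on proteins, had -0.37 ± 0.12 without overlap (adjusted p = 0.154). Sptlc3 and Sptssb had 0 counts in every library. Of the other ceramide synthases, Cers1, Cers3 and Cers4 reached at most 6 counts in a library and were not tested. Degs2, the other desaturase, was at 15.5 ± 1.38 and 14.1 ± 1.41 CPM.

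Among the other head group enzymes 0 of 5 tested genes were called (median -0.10). B4galnt1, a ganglioside synthase and the most abundant of its list, was at 491 ± 3.51 CPM in the controls and 418 ± 11.7 CPM in the Pex5-deficient libraries, without overlap (log2 fold change -0.23 ± 0.12, SE, adjusted p = 0.339 by edgeR). St3gal5, which makes the ganglioside that B4GALNT1 uses, had at most 2 counts in a library. Cerk, the ceramide kinase, had a log2 fold change of 0.23 ± 0.13 (SE). For transfer and export, 0 of 7 were called (median -0.01), with the glycolipid transfer protein gene Gltp at 371 ± 20.2 and 379 ± 38.1 CPM. Vapb, which anchors lipid transfer proteins at the endoplasmic reticulum, was at 4.80 ± 1.28 and 8.15 ± 1.66 CPM with overlap (0.76 ± 0.25, SE, adjusted p = 0.141 by edgeR), and the transporter gene Abcc1 had -0.12 ± 0.23.

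Breakdown showed 1 call. For sphingomyelinases and their relatives 0 of 6 were called (median 0.02). Smpdl3a, the most abundant, was at 395 ± 4.53 and 421 ± 80.3 CPM. Smpd1, the acid sphingomyelinase, had a log2 fold change of 0.20 ± 0.12 and Smpdl3b -0.15 ± 0.13 (SE). In the list of ceramidases, kinases, phosphatases and the aldehyde step, 1 of 9 tested genes was called higher and 0 lower (median 0.17). It was Plpp3, a phosphatase of several lipid phosphates, sphingosine 1-phosphate among them, which rose from 3.65 ± 2.47 to 26.2 ± 9.48 CPM (log2 fold change 2.80 ± 0.45, SE, adjusted p = 0.0164 by edgeR). Leaving out replicate 1 of either group ended the call (adjusted p = 0.0646 for the Pex5-deficient library, 0.0834 for the control). Acer3, a ceramidase of the endoplasmic reticulum and Golgi, was at 2.73 ± 1.27 and 8.20 ± 2.86 CPM with no overlap (1.57 ± 0.38, SE, adjusted p = 0.0685). It passed without Pex5-deficient replicate 2 (adjusted p = 0.0386) and by DESeq2 (adjusted p = 0.00183). Leaving out any other library gave an adjusted p of 0.0776 to 0.202 by edgeR, and the replicate block gave 0.222. Asah1, the acid ceramidase and the most abundant of the list, was at 563 ± 86.4 and 461 ± 95.7 CPM with overlap.

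Of 12 tested genes of lysosomal glycosphingolipid breakdown 0 were called (median 0.03). Gla, alpha-galactosidase, was at 41.4 ± 1.16 CPM in the controls and 59.2 ± 7.82 CPM in the Pex5-deficient libraries without overlap (log2 fold change 0.52 ± 0.12, SE, adjusted p = 0.0523 by edgeR). It passed without Pex5-deficient replicate 2 (adjusted p = 0.0189) and by DESeq2 (adjusted p = 0.0142). Its adjusted p by edgeR was 0.123 to 0.157 when any other library was left out, and 0.166 with the replicate block. Gm2a, the activator of ganglioside breakdown, was at 821 ± 18.1 and 635 ± 119 CPM without overlap (-0.37 ± 0.17). Psap, the precursor of the saposins, was at 2866 ± 301 and 3095 ± 831 CPM with overlap. Of the sphingosine 1-phosphate receptors only S1pr2 and S1pr4 were tested. S1pr2 was at 27.0 ± 0.38 and 37.8 ± 6.18 CPM without overlap (0.48 ± 0.13, SE, adjusted p = 0.0859 by edgeR, and 0.0487 without Pex5-deficient replicate 2). When any other library was left out, the adjusted p of S1pr2 was 0.113 to 0.234 by edgeR. S1pr4 was at 2.89 ± 0.52 and 3.99 ± 0.34 CPM, also without overlap (0.48 ± 0.23).

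The lists of substrate supply held the other 2 calls. Among 12 tested genes that supply long acyl chains, 1 was called higher and 1 lower (median -0.05). Elovl6, the elongase that acts on palmitoyl chains, fell from 7.74 ± 2.87 to 2.22 ± 0.51 CPM (log2 fold change -1.83 ± 0.31, SE, adjusted p = 0.0206 by edgeR). Hacd2, a dehydratase of the elongation cycle, rose from 21.7 ± 1.72 to 31.3 ± 2.89 CPM (0.53 ± 0.11, SE, adjusted p = 0.0463). Elovl6 had an adjusted p of 0.0511 without Pex5-deficient replicate 1, 0.0533 without replicate 3, and 0.0530 and 0.0518 without control replicates 2 and 3. Hacd2 had 0.0887 to 0.155 when any library but Pex5-deficient replicate 2 was left out. Dbi, the acyl-CoA binding protein and the most abundant of the list, was at 252 ± 33.2 and 229 ± 24.3 CPM.

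Of 8 tested genes that supply serine 0 were called (median 0.12). Psat1, the aminotransferase of serine synthesis, was at 25.7 ± 7.56 CPM in the controls and 48.7 ± 8.62 CPM in the Pex5-deficient libraries without overlap (log2 fold change 0.93 ± 0.22, SE, adjusted p = 0.0573 by edgeR), and passed by DESeq2 (adjusted p = 0.00287). Leaving out single libraries gave adjusted p values of 0.0605 to 0.134 for Psat1 by edgeR. Phgdh, the first enzyme of that route and the most abundant of the list, was at 290.3 ± 6.22 and 386 ± 65.3 CPM without overlap (0.41 ± 0.15, SE, adjusted p = 0.185, and 0.0255 without Pex5-deficient replicate 2). Its adjusted p by edgeR was 0.299 to 0.418 when any other library was left out. Slc38a1, a transporter of neutral amino acids, was at 76.2 ± 3.004 and 59.6 ± 3.83 CPM without overlap (-0.35 ± 0.10, SE, adjusted p = 0.0917).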

How the data were processed

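RNA was sequenced from 6 libraries (SMART-Seq RNA Stranded kit, single-end reads of 100 bases, per the labels' protocols). The authors deposited raw gene counts, 1 column per library. STAR and featureCounts are named in the submitters' processing notes, beside DESeq2 1.40.1 in R 4.3.2 and the builds GRCm38.p5 and mm10. No source used here gives the strand setting of the counting. Annotated genes on the opposite strand overlap Sptlc2, Cers2, Cers5 and Sgms1, and small annotated genes on the same strand overlap Cers6, Sgms1 and Sgpl1, all by gene span; the longest transcript of each of the 10 genes shares no 100-base word with another gene, and shorter transcripts were not compared. Reads were PCR products without stated molecular identifiers, so the level of 3 counts covers counting error only.

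From the deposited counts, genes were kept by filterByExpr (minimum count 10, minimum total 15), scaled by TMM and tested with edgeR 4.0.16 (glmQLFit, glmQLFTest, R 4.3.3). Tests were two-sided, and p-values were adjusted by Benjamini-Hochberg over 11011 genes, with a threshold of 0.05. CPM are on TMM-scaled library sizes. Each standard error comes from the F statistic of the gene. Ratios were taken from counts and compared by exact permutation. Exon lengths and positions are from GENCODE M21 (GRCm38), and promoters from RefSeq (GRCm38.p6). The alternatives were DESeq2 1.42.0, its size factors, no scaling factors, other filters, a replicate block and leaving out each library. The steps were tested on simulated data.

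The 10 genes and all lists were chosen with earlier results of these data known. All 10 are named. Of each list the 2 tested genes with the smallest p, every called gene and the most abundant one are named. Cers1, Cers3, Cers4, Sgms2, Sptlc3, Sptssb and St3gal5 are named by their place in a list.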

Additional observations from a re-analysis of the deposited data

How the results depend on the processing

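Under all 12 alternatives 0 of the 10 genes were called, with a smallest adjusted p of 0.146, and 112 of 120 fitted values kept their direction. Of the 10, the sign turned for Sptlc1, Sptlc2, Degs1 and Sgpl1. The largest turned value was 0.159 (Sptlc2 with library size alone), beside a median size of 0.15 over the 10 genes in the main fit. With library size alone the log2 fold change was 0.0181 for Sptlc1, 0.159 for Sptlc2, 0.0909 for Degs1, 0.00429 for Sgpl1, 0.0447 for Degs2, 0.0239 for Abcc1, 0.0326 for Smpdl3b and 0.0217 for Dbi. When single libraries were left out it ranged across 0 for Sptlc2 (-0.0435 to 0.0308), Degs1 (-0.136 to 0.139), Abcc1 (-0.438 to 0.0544), Gltp (-0.0500 to 0.108), Smpdl3a (-0.0119 to 0.256), Psap (-0.0289 to 0.331) and Pex5 (-0.0395 to 0.10), and the ratio of Sgpl1 to Sptlc1 plus Sptlc2 from -0.204 to 0.0237.

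Of the 10 genes, 1 had an unadjusted p under 0.05 (18.9% of all tested genes), against 0 with DESeq2 (17.3%), 0 with library size alone (12.9%) and 0 to 3 when a library was left out (13.8% to 21.6%). The groups did not overlap for 3 of the 10 (26.1% of all tested genes), for 1 with library size alone (17.3%), and for 3 to 7 when a library was left out (33% to 40.3%). The 358 calls over all genes became 755 with DESeq2, 83 with the replicate number as a block, and 76 to 523 when a library was left out. The 3 calls in the surrounding lists became 7 with DESeq2, 5 with library size alone, 7 with no filter, 1 with a mean of at least 5 CPM, 0 with the replicate block, and 0 to 7 when a library was left out. The cause was not tested.

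The labels state no pairing of the libraries by replicate number. Deviations from the group means of libraries with the same number correlated at -0.23, -0.07 and -0.46 across genes, and those with different numbers at -0.22 to 0.44. With 3 libraries a group, whose deviations sum to 0, these values cannot decide whether the libraries are paired. With the replicate block 0 of the 10 genes were called and 1 had an unadjusted p under 0.05 (13.6% of all tested genes).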
